A study of Mus musculus with 3 samples.

Results

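The Hox genes of the 4 mouse clusters were followed across 3 pancreatic tumour cell lines. Members were taken by name, as every entry of the deposited table called Hoxa, Hoxb, Hoxc or Hoxd with a number from 1 to 13 and no further suffix. This gave 39 genes of 22757 named genes: 11 of the Hoxa, 10 of the Hoxb, 9 of the Hoxc and 9 of the Hoxd cluster. The series holds 1 RNA-seq library for each of 3 lines of the HI-Panc progression model, which arose without an immortalization step from tumours of K-rasG12D/p16-/- transgenic mice (Mus musculus). By stage label the lines are localized, invasive and metastatic, and values below follow this stage order. All 3 carry the same 2 engineered alleles, and no line without them was analysed here. The tissue recorded for each is Body wall (localized), pancreatic tissue (invasive) and Liver (metastatic). If the first 2 lines had been exchanged, the directions given below between them would turn. The labels give the same treatment text for every library, cobalt chloride at 100 ng/ml for 24 h to model hypoxia, without saying which libraries were treated. Each stage is 1 cultured line and 1 library, so no difference has a replicate check, no p-value was computed, and every statement compares these libraries. The promoter that drives the K-ras allele and the age of the mice are not given in the sources used here.

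Hox genes encode homeodomain transcription factors that give cells their address along the head-to-tail axis. They lie in clusters in which the low-numbered genes are used in anterior and the high-numbered genes in posterior parts of the body, and genes with the same number in different clusters are paralogues. Cultured fibroblasts and epithelial cells are known to keep part of the Hox pattern of the place they came from. The proteins bind DNA together with cofactors of the TALE homeodomain class (Pbx, Meis), and whole clusters are held silent by Polycomb complexes and kept active by Trithorax complexes. Caudal-type factors such as Cdx2 are known upstream activators of Hox genes.

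Promoter sequence is shown for the member with the highest value in the localized library (Hoxa5), for the one with the highest value in the metastatic library (Hoxa13) and for a member listed at 0 in every library (Hoxd13). Each is the RefSeq window on GRCm38.p6 from 250 bases before to 50 bases after an annotated start, written on the gene's own strand with CpG dinucleotides in capitals. The Hoxa5 window lies at chr6:52204538-52204837 (minus strand), the Hoxa13 window at chr6:52260831-52261130 (minus strand) and the Hoxd13 window at chr2:74667975-74668274 (plus strand).
Hoxa5: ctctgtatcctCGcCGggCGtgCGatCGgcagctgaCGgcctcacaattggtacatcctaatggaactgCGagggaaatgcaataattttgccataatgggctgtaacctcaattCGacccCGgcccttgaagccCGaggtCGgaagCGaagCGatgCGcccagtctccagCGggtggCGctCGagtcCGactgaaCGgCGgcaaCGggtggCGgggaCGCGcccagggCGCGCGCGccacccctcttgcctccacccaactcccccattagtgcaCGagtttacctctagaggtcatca
Hoxa13: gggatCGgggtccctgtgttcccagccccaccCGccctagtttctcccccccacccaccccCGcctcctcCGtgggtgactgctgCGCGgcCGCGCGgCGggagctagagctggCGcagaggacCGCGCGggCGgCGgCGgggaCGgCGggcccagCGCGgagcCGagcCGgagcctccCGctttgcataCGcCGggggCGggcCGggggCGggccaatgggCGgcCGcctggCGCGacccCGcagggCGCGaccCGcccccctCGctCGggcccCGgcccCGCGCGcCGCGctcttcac
Hoxd13: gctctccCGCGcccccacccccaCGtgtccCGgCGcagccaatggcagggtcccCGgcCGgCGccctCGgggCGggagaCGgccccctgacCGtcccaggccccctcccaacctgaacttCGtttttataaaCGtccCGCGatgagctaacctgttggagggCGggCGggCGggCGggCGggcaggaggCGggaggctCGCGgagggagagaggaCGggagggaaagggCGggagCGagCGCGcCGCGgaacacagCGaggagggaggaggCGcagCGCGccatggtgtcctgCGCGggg
These windows hold 29, 45 and 37 CpG dinucleotides in the order shown, against a median of 7 over 32851 RefSeq promoter windows of the same length. The Hoxd13 window, of a gene listed at 0, thus lay between those of both expressed genes. Windows were at hand for 22 of the 39 members (24 windows), with a median of 14.5 CpG. The median was 17.5 for 10 Hoxa windows and 20 for 10 Hoxd windows. The letters TTTATG, a core that caudal-type factors are known to bind, were searched on both strands and stood in 5 of the 24 Hox windows (20.8%) and in 11.9% of all windows. Hoxa7, Hoxb8 and Hoxd4 had 2 matches each and Hoxd3 and Hoxd11 had 1 each, so 3 of the 5 windows belong to Hoxd genes at 0 or 1 fragment. The 3 windows printed above had 0.

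The values are FPKM (fragments mapped to a transcript, scaled by its length and by the size of the library), a level per length that can be compared between genes. The 3 libraries held an estimated 45500000 (localized), 41000000 (invasive) and 43300000 (metastatic) fragments and sums of 572661, 575446 and 565287 FPKM, and the median difference over all genes past the filter lay within 0.01 of 0 (log2) for each pair. Fragments per gene were estimated from these depths and transcript lengths, and the 95% intervals given below are exact counting intervals that cover counting error only. A gene of 2 kb with 3 fragments, the number that a count of 0 allows, would have 0.0361, 0.03996 and 0.0379 FPKM in the same order.

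Hox expression was low and unevenly shared between the lines. The 39 members summed to 12.7 FPKM in the localized library (95% counting interval 11.9 to 13.5), 1.96 FPKM in the invasive library (1.66 to 2.30) and 17.7 FPKM in the metastatic library (16.7 to 18.7). By these sums the invasive level was 6.47-fold below the localized and the metastatic 9.02-fold above the invasive. Ratios with an interval, for a group of genes, are ratios of its pooled fragments per depth, which weight long genes more than sums of FPKM do. On that scale (975, 151 and 1238 fragments) the invasive library was 5.83-fold below the localized (4.90 to 6.96) and the metastatic 7.78-fold above the invasive (6.56 to 9.27). In a bulk library, fewer cells with a transcript and less of it per cell cannot be told apart. In stage order, 4, 0 and 5 members reached at least 1 FPKM. The highest value of any member was 5.45 FPKM for Hoxa13 in the metastatic library, a level at or above which 37.5% of all named genes of that library lay. Of the 39 members, 21 had at most 3 estimated fragments in every library, and 12 of these were listed at 0 in all 3.

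**Figure D1:**
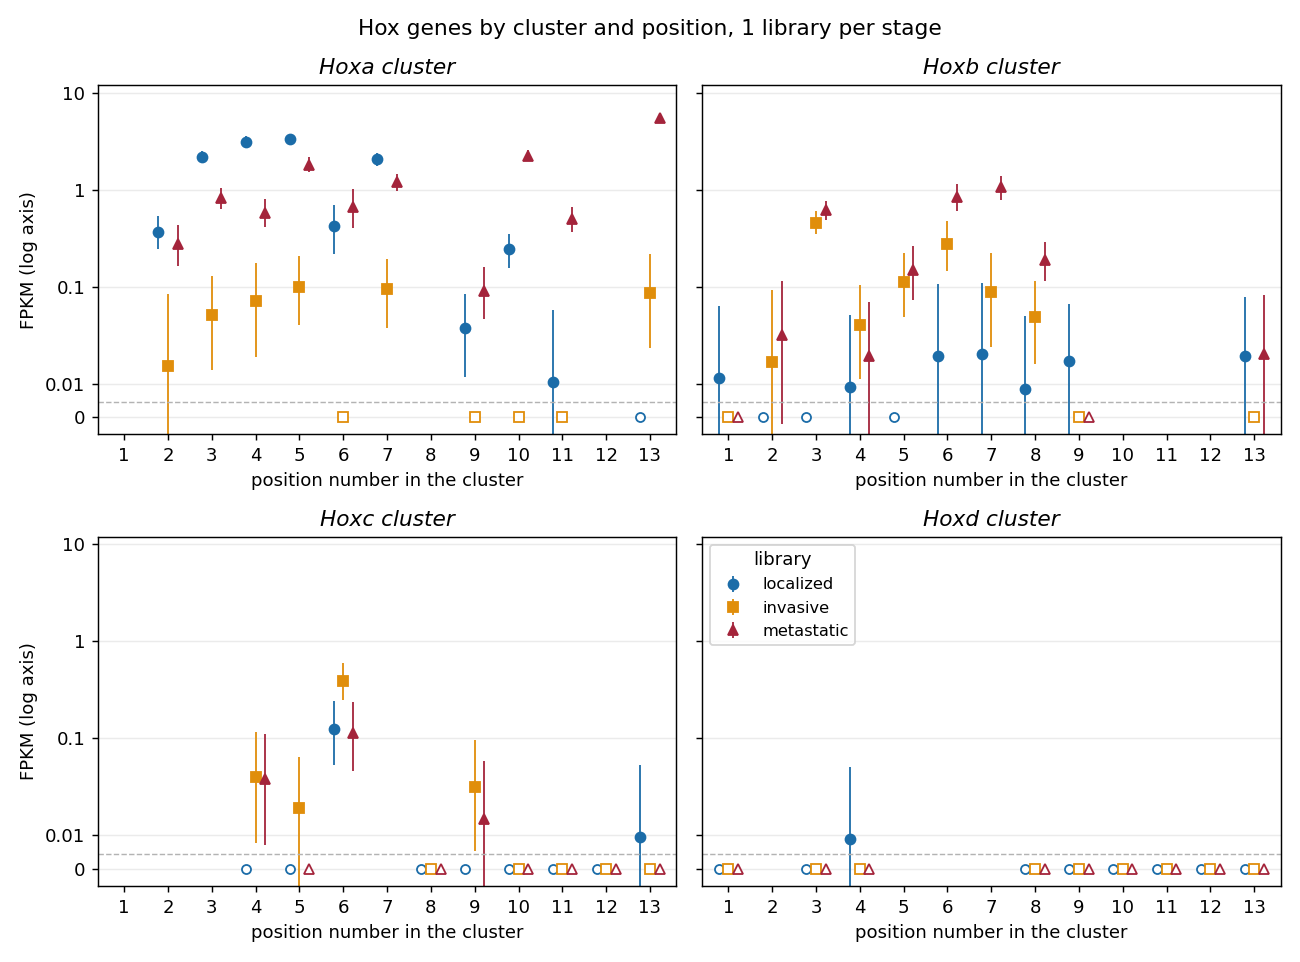
FPKM (log axis) of the Hox genes reported here against their position number, with 1 panel per cluster and 1 symbol per library; bars are 95% counting intervals and open symbols under the dashed line stand for values of 0. The Hoxa panel shows the localized and metastatic libraries well above the invasive library from Hoxa2 to Hoxa7 and at Hoxa10. At Hoxa11 and Hoxa13 the metastatic library alone lies well above it. The Hoxb panel shows the localized library at or near 0, and the Hoxd panel is empty but for 1 fragment of Hoxd4.

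The lines came in different orders in the Hoxa, Hoxb and Hoxc clusters. Hoxa summed to 12.4 FPKM (11.7 to 13.2) in the localized, 0.430 FPKM (0.286 to 0.622) in the invasive and 14.6 FPKM (13.7 to 15.5) in the metastatic library. The invasive sum was 28.9-fold below the localized (pooled fragments 30.8-fold, 21.2 to 46.6), and the metastatic over localized ratio was 1.17 for the sums and 1.12 for pooled fragments (1.02 to 1.22). Hoxb ran in another order, with 0.105 FPKM (0.0482 to 0.2) in the localized, 1.04 FPKM (0.840 to 1.28) in the invasive and 2.93 FPKM (2.54 to 3.35) in the metastatic library. Hoxc was highest in the invasive library, with 0.134, 0.486 and 0.167 FPKM in stage order, and its localized and metastatic levels did not differ beyond counting error. Hoxd had 0.00918 FPKM in the localized library, 1 fragment of Hoxd4, and was listed at 0 in the other 2, so its lines have no order. As a share of all Hox FPKM, Hoxa made up 98.0%, 22.0% and 82.5% in stage order, and Hoxb 0.832%, 53.2% and 16.6%.

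**Figure D2:**
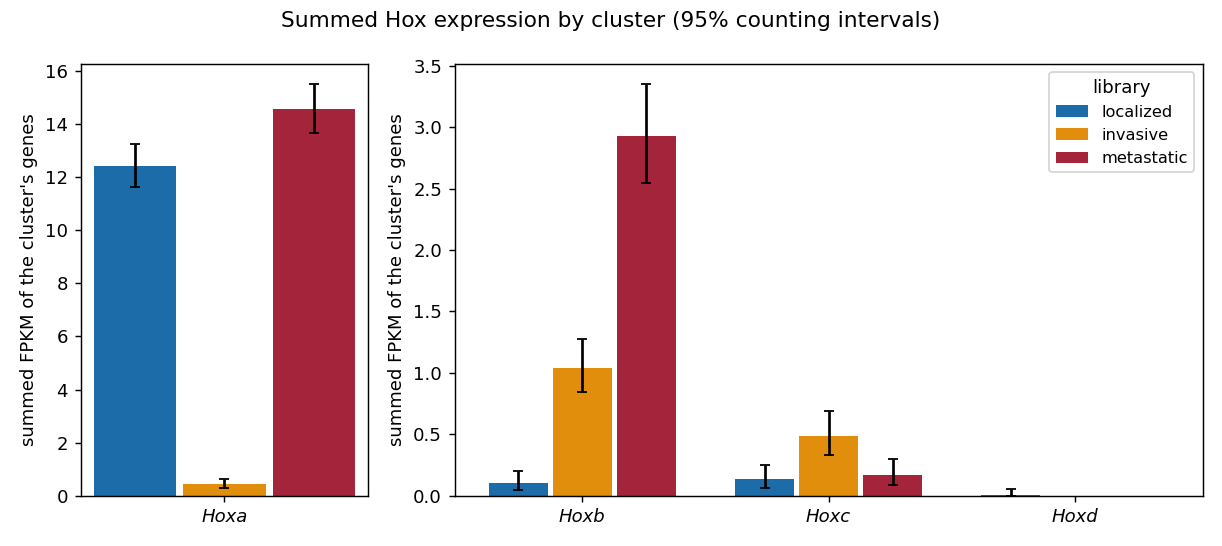
Summed FPKM of each Hox cluster (bars from 0, Hoxa on its own axis) in the 3 libraries, with 95% counting intervals. Hoxa is high in the localized (12.4) and metastatic (14.6) libraries and low in the invasive library (0.430), whereas Hoxb rises from 0.105 to 1.04 to 2.93 FPKM in the order of the stages.

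The localized and invasive libraries, compared for the step from local to invasive growth as labelled, differed in most of the Hoxa genes. Hoxa5, a regulator of trunk and lung patterning (ENSMUSG00000038253.6; GRCm38 chromosome 6, 52201754 to 52204587, minus strand), stood at 3.32 FPKM (localized) against 0.09995 FPKM (invasive), a 33.3-fold difference (15.9 to 83.6). Hoxa4 had 3.13 and 0.0719 FPKM (45.8-fold, 17.6 to 169.7), Hoxa3, a regulator of pharyngeal organ formation, had 2.16 and 0.0513 FPKM (42.4-fold, 16.3 to 157), and Hoxa7 had 2.06 and 0.0958 FPKM (22.2-fold, 10.5 to 55.98). Each of these was lower in the invasive library, and their intervals stayed clear of 2-fold. Hoxa2, which acts in hindbrain and branchial arch patterning, went the same way, with 0.370 and 0.0152 FPKM (27 and 1 fragments). Hoxa6 (0.421 FPKM, 13 fragments) and Hoxa10 (0.243 FPKM, 26 fragments) were present in the localized library and listed at 0 in the invasive one. Against a floor of 3 fragments there, they were 3.91-fold and 7.82-fold lower. Their counting intervals began at 2.75-fold and 5.92-fold. Hoxa9 (5 and 0 fragments), Hoxa11 (1 and 0) and Hoxa13 (0 and 4) had too few fragments in both libraries to be told apart. For Hoxa13 this holds at the transcript length used. With the longest annotated transcript it would have 0 and 8 fragments, counts that for Hoxb5 gave an interval beginning at 1.89-fold.

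On the log2(FPKM + 1) scale, which understates the difference of low genes, 5 members averaged 1 FPKM or more: Hoxa3, Hoxa4, Hoxa5, Hoxa7 and Hoxa13. The means over 3 libraries ran from 1.01 (Hoxa3) to 1.85 FPKM (Hoxa13), and the nearest member outside this filter was Hoxa10 with 0.825 FPKM. Of the 5, 4 were at least 2-fold lower in the invasive than in the localized library and 0 higher, beside 6.08% lower and 8.78% higher among all 11406 genes past the same filter. The 5 had a median difference of -1.59, beside -0.002 over those genes. A member that passed this filter through 1 high library had to differ, so these counts describe the members and are no support. A rule added after the values were seen, which asks for a counting interval wholly past 2-fold among genes with at least 10 fragments in the pair, could be applied to 11 members. It called 8 lower (among them Hoxa2 to Hoxa7) and 2 higher (Hoxb3 and Hoxb6) in the invasive library, beside 9.7% lower and 10.1% higher among 13744 genes.

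Between the metastatic and localized libraries, the ends of the series as labelled, the Hoxa cluster differed by position, while the ratio of its sums was 1.17. The 4 posterior members (Hoxa9 to Hoxa13) summed to 0.291 FPKM (localized) and 8.28 FPKM (metastatic), a ratio of 28.5 for the sums and of 18.3 for pooled fragments (12.8 to 27.1). The value moves by more than 1.5 times between these scales. The 4 central members (Hoxa4 to Hoxa7) summed to 8.93 and 4.25 FPKM, 2.10-fold lower in the metastatic library (pooled fragments 2.16-fold, 1.87 to 2.49). Hoxa13, the last gene of the cluster, is a regulator of hindgut, limb and genital development (ENSMUSG00000038203.18; GRCm38 chromosome 6, 52257694 to 52260880, minus strand). It was listed at 0 in the localized library and had 5.45 FPKM (269 fragments) in the metastatic library. Taking 3 fragments for the 0, it was 94.2-fold higher, and its counting interval began at 76.1-fold. With the longest annotated transcript the metastatic level stands for 525 fragments, and both of these folds would be higher. Hoxa10, a regulator of the posterior trunk and the uterus (ENSMUSG00000000938.11; GRCm38 chromosome 6, 52231197 to 52240854, minus strand), had 0.243 and 2.23 FPKM, 9.34-fold higher (6.21 to 14.6). Hoxa11, its neighbour, had 0.0104 and 0.501 FPKM (1 and 46 fragments), with a ratio of 48.3 (8.25 to 1950), and Hoxa9 had 0.0380 and 0.0904 FPKM, with an interval that included equality (2.52, 0.827 to 9.14). At the posterior end, Hoxa11 and Hoxa13 were thus at or near 0 in the localized library, where Hoxa10 had the highest value. In the metastatic library Hoxa13 led.

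**Figure D3:**
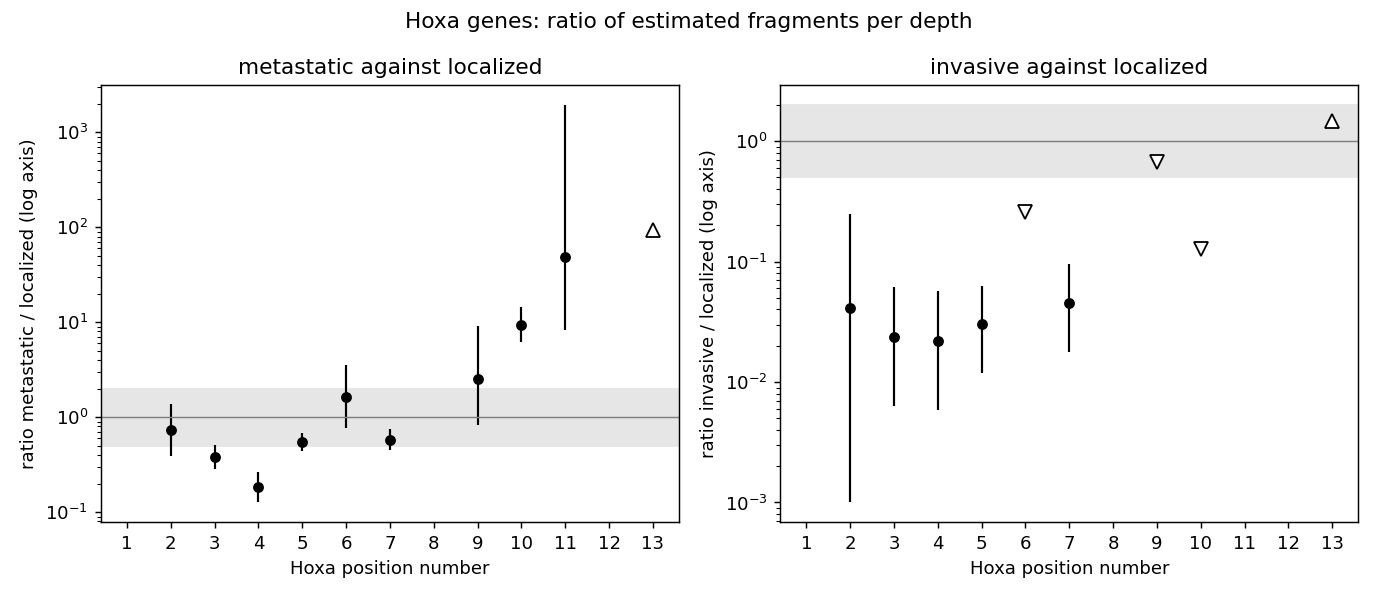
Ratio of each reported Hoxa gene between 2 libraries (log axis) against its position number, with 95% counting intervals. Open triangles are ratios against a floor of 3 fragments where 1 library was at 0, rather than starts of counting intervals. The grey band marks less than 2-fold. In the left panel the ratio metastatic over localized lies at 0.186 for Hoxa4 and at 9.34 for Hoxa10; in the right panel the ratios invasive over localized of Hoxa2 to Hoxa7 lie below the band.

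Within the central group the metastatic line had less of 3 members and not of the fourth. Hoxa4 was 5.37-fold lower in the metastatic than in the localized library (3.13 and 0.579 FPKM, interval 3.75 to 7.88), Hoxa5 1.83-fold lower (3.32 and 1.81 FPKM, 1.48 to 2.28) and Hoxa7 1.72-fold lower (2.06 and 1.19 FPKM, 1.33 to 2.24). Hoxa6 had 0.421 and 0.664 FPKM, and the interval of its ratio included equality (0.765 to 3.54). Of the anterior members, Hoxa3 was 2.63-fold lower (2.16 and 0.817 FPKM, 1.98 to 3.53) and Hoxa2, with 0.370 and 0.274 FPKM, had an interval that included equality. The interval of the metastatic over localized ratio lay clear of those of the other Hoxa genes named here for Hoxa4, while those of Hoxa2, Hoxa3 and Hoxa5 overlapped. In the annotation, a Hoxa3 transcript spans Hoxa4, Hoxa5 and Hoxa6, so the authors' assignment of fragments among these genes is uncertain. Of the 5 filtered members, 1 was at least 2-fold higher (Hoxa13, difference 2.69) and 1 lower (Hoxa4, -1.39) in the metastatic library, beside 9.07% and 7.29% of all genes, and their median was -0.62, beside 0.004. By the counting rule, 8 of 17 members were higher (Hoxa10, Hoxa11, Hoxa13, Hoxb3 and Hoxb5 to Hoxb8) and 1 lower (Hoxa4), beside 10.5% and 11.4% of 13732 genes.

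Against the invasive library, the Hoxa members from Hoxa2 to Hoxa13 had higher values in the metastatic library. The cluster's sum was 33.9-fold higher (pooled fragments 34.4-fold, 23.7 to 52.05). Hoxa13 went from 0.0856 to 5.45 FPKM, a ratio of 63.8 (24.6 to 236). Hoxa5 (0.09995 and 1.81 FPKM) had a ratio of 18.2 (8.57 to 46.0), Hoxa3 (0.0513 and 0.817 FPKM) of 16.1 (6.02 to 60.9), Hoxa7 (0.0958 and 1.19 FPKM) of 12.9 (6.01 to 32.9) and Hoxa4 (0.0719 and 0.579 FPKM) of 8.54 (3.06 to 33.0). Hoxa10 and Hoxa11 were listed at 0 in the invasive library. Against a floor of 3 fragments there, they were 73.0-fold and 14.5-fold higher in the metastatic library. Their counting intervals began at 58.9-fold and 11.4-fold. Of the 5 filtered members, 3 (Hoxa5, Hoxa7 and Hoxa13) were higher by 2-fold or more and 0 lower, beside 1.33% and 1.67% of all genes, with a median of 1.00, beside -0.009. The difference of Hoxa7 was 1.001, at the threshold itself, and it fell to 0.94 with the deposited values as they are. The counting rule called 12 of 17 members higher, among them Hoxa13, Hoxa10 and Hoxb7, and 0 lower, beside 2.46% and 3.19% of 13259 genes. The comparisons share libraries: the low Hoxa values of the invasive library enter this comparison and that with the localized library.

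The Hoxb genes were near 0 in the localized line and present at low levels in the other 2. The localized library held 9 fragments over all 10 Hoxb genes, the invasive 92 and the metastatic 211. In pooled fragments per depth, Hoxb was 11.3-fold higher in the invasive (5.71 to 25.6) and 24.6-fold higher in the metastatic library (12.7 to 54.6) than in the localized one, where the FPKM sums gave 9.89-fold and 27.8-fold. It was 2.18-fold higher in the metastatic than in the invasive library (1.70 to 2.81). Hoxb3, a hindbrain and pharyngeal patterning gene, was listed at 0 in the localized library. It reached 0.458 FPKM (57 fragments) in the invasive and 0.620 FPKM (81 fragments) in the metastatic library. Taking 3 fragments for the 0, these levels were 21.1-fold and 28.4-fold higher. Their counting intervals began at 16.57-fold and 22.55-fold. For Hoxb3, the metastatic over invasive ratio of 1.35 had an interval that included equality (0.949 to 1.93). Hoxb7, a trunk-level gene (ENSMUSG00000038721.8; GRCm38 chromosome 11, 96286623 to 96290162, plus strand), had 0.0201, 0.0890 and 1.05 FPKM in stage order, and was 12.1-fold higher in the metastatic than in the invasive library (4.44 to 46.1). Hoxb6 had 0.0191, 0.276 and 0.845 FPKM, with a metastatic over invasive ratio of 3.06 (1.61 to 6.22). Hoxb8 had 0.00886, 0.0492 and 0.186 FPKM, with a ratio of 3.79 (1.38 to 12.9). The metastatic line thus exceeded the invasive line beyond counting error in Hoxb6, Hoxb7 and Hoxb8.

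The remaining Hoxb genes had few fragments. Hoxb5 had 0, 8 and 11 fragments (0, 0.113 and 0.147 FPKM) and Hoxb4 1, 4 and 2 fragments in stage order. Hoxb1, Hoxb2, Hoxb9 and Hoxb13 had at most 3 fragments in every library. Hoxb13, the posterior end of this cluster, had 0.0193 (localized), 0 (invasive) and 0.0203 FPKM (metastatic), with 2 fragments where present, so the metastatic line's high value at position 13 belonged to Hoxa13.

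Hoxc6, a trunk-level gene, was the one Hoxc member above 3 fragments. Its values in stage order were 0.124 FPKM (8 fragments), 0.395 FPKM (23 fragments) and 0.114 FPKM (7 fragments). The invasive library was 3.19-fold above the localized (1.38 to 8.24) and 3.47-fold above the metastatic library (1.44 to 9.56), while the localized and metastatic values did not differ beyond counting error (ratio 0.919, 0.284 to 2.90). Hoxc4 had 0, 3 and 3 fragments and Hoxc9 0, 3 and 1, and Hoxc5 had 2 fragments in the invasive and Hoxc13 1 in the localized library. Hoxc8, Hoxc10, Hoxc11 and Hoxc12 were listed at 0 throughout, as were Hoxd1, Hoxd3 and Hoxd8 to Hoxd13. At this depth a Hoxd gene present at the level of Hoxa5 in the localized library would have been seen, and one at the floor of a few hundredths FPKM would not.

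Seen by position number over all clusters, the metastatic library stood apart from the other 2 in its posterior share, which rests on 7 fragments in the invasive library. Members 1 to 3 held 25.4%, 28.2% and 15.3% of the Hox FPKM in the localized, invasive and metastatic libraries, members 4 to 8 held 71.99%, 65.9% and 37.7%, and members 9 to 13 held 2.66%, 5.98% and 47.1%. The posterior share of the metastatic library came from Hoxa13 (31.0% for position 13) and Hoxa10 (12.6% for position 10). At position 12 both measured genes, Hoxc12 and Hoxd12, were listed at 0. In the localized library positions 4 and 5 led, with 24.8% and 26.2%, and in the invasive library position 6 led with 34.3%, shared by Hoxc6 and Hoxb6. The invasive interval of position 6 (0.470 to 0.928 FPKM) overlapped that of position 3 (0.390 to 0.654), which had more fragments (61 against 36). By listed value, the highest gene at position 6 was Hoxa6 in the localized, Hoxc6 in the invasive and Hoxb6 in the metastatic library. None of these reached 1 FPKM, and in each library the interval of the highest gene overlapped that of the next. Paralogues were still not used alike beyond counting error. Hoxa6 lay above Hoxb6 in the localized library (intervals 0.216 to 0.695 and 0.00048 to 0.1065 FPKM). It lay below Hoxb6 in the invasive library (0 to 0.128 and 0.147 to 0.471 FPKM).

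Partners and regulators of Hox proteins were counted by the same 2-fold rule on the log2(FPKM + 1) scale, rather than by ratios of fragments. Under this rule 6.08% to 9.07% of all genes differ in each direction from the localized library, and 1.33% and 1.67% between the later stages. Of 11 TALE genes, 9 had a mean of at least 1 FPKM. By this rule the single difference of at least 2-fold in any pair was in Meis2. It had 20.8, 9.69 and 11.1 FPKM in stage order (difference of -1.03 between the first 2). Tgif2 (3.129, 1.497 and 1.191 FPKM) was more than 2-fold below its localized level in both later stages in FPKM itself. On the log2(FPKM + 1) scale its differences from the localized library were -0.725 (invasive) and -0.914 (metastatic). Meis1 had 3.25, 2.30 and 2.15 FPKM, within 2-fold on the log2(FPKM + 1) scale. All 31 Polycomb genes passed the filter, and by this rule 1 of them, Phf19, differed by 2-fold in 1 pair. Phf19, an accessory subunit of the complex that methylates histone H3 at K27, had 10.4, 6.50 and 4.45 FPKM, lower in the metastatic than in the localized library. Ezh2, the enzyme of that complex, had 32.4, 36.9 and 34.3 FPKM. Jarid2 (1.73, 2.52 and 3.79 FPKM) was past 2-fold between the localized and metastatic libraries in FPKM itself, but had a difference of 0.808 on the log2(FPKM + 1) scale. All 17 Trithorax and demethylase genes passed, and by this rule 1 of them, Kdm6b, differed by 2-fold in 1 pair. Kdm6b, which removes the methyl mark at K27, had 6.72, 10.4 and 14.5 FPKM, higher in the metastatic than in the localized library. Kmt2a, the founding member of the mammalian Trithorax methyltransferases, had 7.85, 7.05 and 6.003 FPKM. Kmt2c (1.989, 2.70 and 4.0 FPKM) was just past 2-fold between the localized and metastatic libraries in FPKM itself, with a difference of 0.742 on the log2(FPKM + 1) scale. Of 6 retinoid receptor genes, whose ligands are known inducers of anterior Hox genes, 4 passed the filter and had 0 differences of 2-fold in any pair. Rarb, below the filter, had 0.198, 1.04 and 1.201 FPKM (26, 126 and 153 fragments).

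The ParaHox genes, the sister group of the Hox clusters, had their own pattern. Cdx2, the caudal-type factor of the intestine, had 5.40, 35.2 and 70.6 FPKM in the order of the stages, with differences from the localized library of 2.501 (invasive) and 3.48 (metastatic). Pdx1, which specifies pancreas, had 58.6, 66.0 and 63.3 FPKM. Cdx1, Cdx4 and Gsx2 were listed at 0 in all 3 libraries. By listed value the Hoxb sum, Hoxb2, Hoxb3, Hoxb5 to Hoxb8 and Hoxa13 had the same order of libraries as Cdx2. The Hoxa sum did not, with its lowest value in the invasive library. The localized and invasive values did not differ beyond counting error for Hoxb2 (0 and 1 fragments), Hoxb7 (1 and 4) and Hoxb8 (1 and 5). The same held for Hoxa13 (0 and 4) at the transcript length used. For Hoxb3 (0 and 57), Hoxb5 (0 and 8) and Hoxb6 (1 and 13) they did differ. Between the invasive and metastatic libraries the intervals of Hoxb3 and Hoxb5 included equality. With 3 libraries the relation was not tested.

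Few non-coding transcripts of the clusters could be read. Hoxa11os, the antisense gene of Hoxa11, had 0.388 FPKM (33 fragments) in the metastatic library and 0 in the other 2, the same library in which Hoxa11 had 0.501 FPKM. The sources used here do not say that strand was kept, so fragments of these 2 overlapping genes cannot be told apart. Hottip, a non-coding gene beside Hoxa13, had 0.0170 FPKM in the metastatic library, and Hotair of the Hoxc cluster and Hoxd3os1 were listed at 0 throughout. Evx1, the homeobox gene beyond Hoxa13, had 0, 0.00898 and 0.00852 FPKM, and Evx2 beyond Hoxd13 was at 0. In all, 23 of the 39 members overlap another annotated gene, on either strand.

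Genes outside the clusters were counted in the same way. Of 30 listed neighbours, from 28.9 kb to 910 kb beyond a cluster's end, 25 had a mean of at least 1 FPKM, and 1 of these was past 2-fold in any pair, higher in both later stages, beside 8.78% and 9.07% of all genes. That was Nfe2l3, 697 kb from Hoxa, with 0.573, 5.14 and 9.75 FPKM. Skap2, 143 kb from the anterior end of the Hoxa cluster, had 27.6, 35.5 and 42.3 FPKM, and Hibadh, 285 kb beyond the Hoxa13 end, had 27.9, 33.4 and 40.8 FPKM. Both were somewhat higher in the invasive than in the localized library, where the Hoxa genes were lower. Atp5g1, 119 kb from Hoxb, had 130, 149.8 and 175 FPKM, and Ttll6, Calcoco2 and Skap1, which lie nearer to Hoxb, stood below 0.04 FPKM in every library. Mtx2 and Lnp on the 2 sides of the silent Hoxd cluster had 43.5, 40.4 and 39.7 FPKM and 4.84, 4.14 and 3.70 FPKM.

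**Figure D4:**
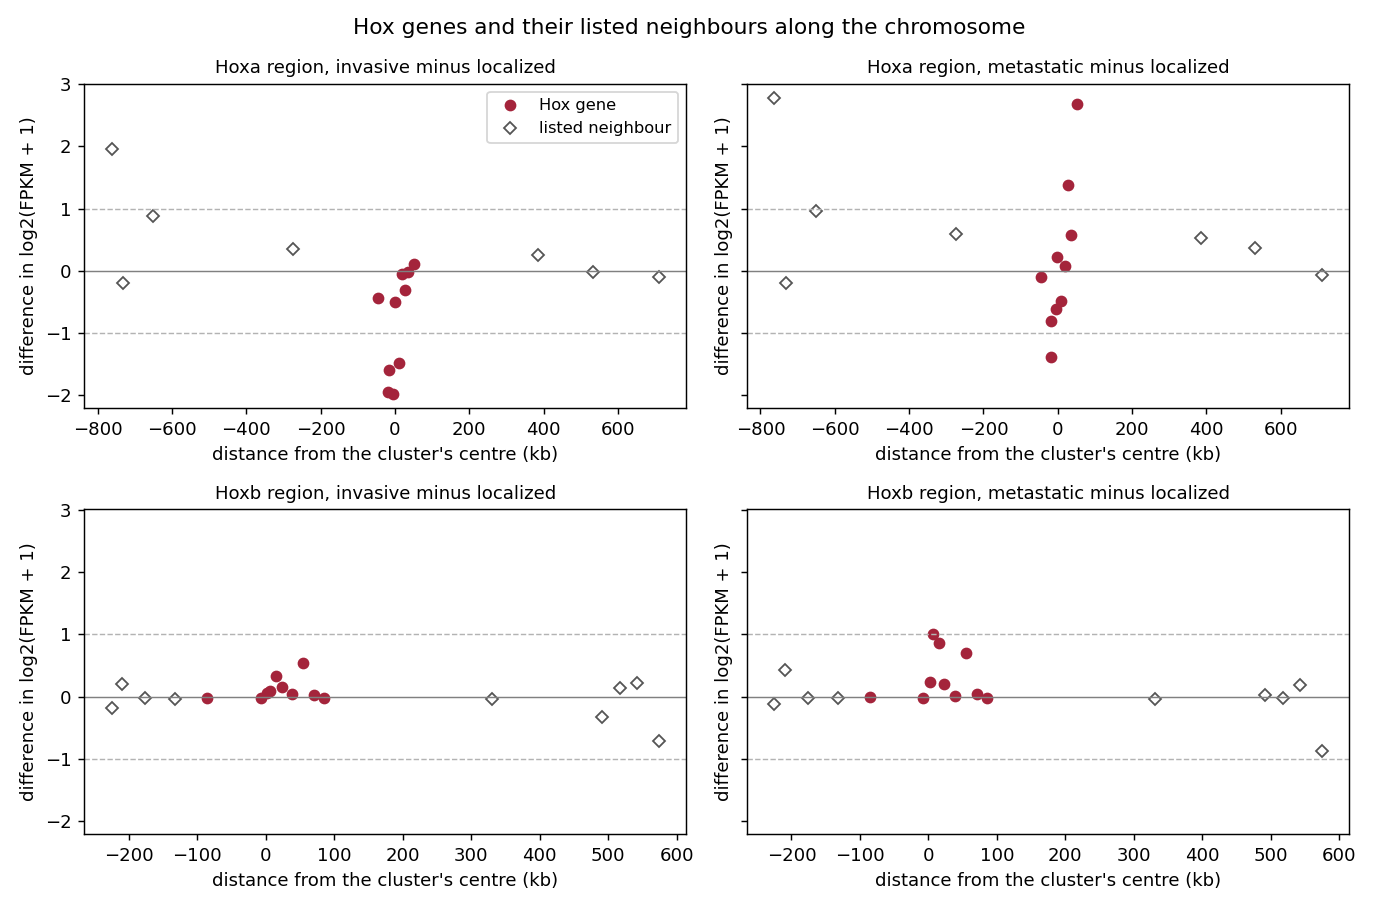
Difference in log2(FPKM + 1) of the reported Hox genes (filled) and listed neighbours (open) against the distance of each gene's centre from its cluster's centre, for Hoxa and Hoxb and for invasive and metastatic minus localized; dashed lines mark 2-fold. In the Hoxa panels the cluster's genes spread from -1.97 to 0.12 and from -1.39 to 2.69, and among the neighbours Nfe2l3 is the one past 2-fold.

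Markers of cell identity differed between the libraries as well. Of 10 fibroblast markers, 7 passed the filter and all 7 were at least 2-fold lower in both other libraries (beside 6.08% and 7.29% of all genes), with summed levels of 570.2, 90.4 and 13.95 FPKM in stage order. Dpt was listed at 0 in the invasive library, Lum and Thy1 at 0 in the metastatic library, and Postn at 0 in both. Postn had 0.0148 FPKM (2 fragments) in the localized library, so it was near absent in every library. Epithelial markers summed to 1195, 6313 and 6818 FPKM, with 4, 8 and 8 of 10 at 1 FPKM or more. Beside the fibroblast sum, the central Hoxa sum was 8.93, 0.268 and 4.25 FPKM and the posterior Hoxa sum 0.291, 0.0856 and 8.28 FPKM. The part of cell identity in the Hox differences was not tested. The hepatocyte, muscle and acinar markers were absent or low in the library whose tissue label they go with. These lists do not cover every cell type of those tissues. The 8 hepatocyte markers summed to 0.195 FPKM in the metastatic library labelled Liver, and the 6 muscle markers to 0.366 FPKM in the localized library labelled Body wall. The 8 acinar markers summed to 1.25 FPKM in the invasive library labelled pancreatic tissue, with Cpa1, Pnlip and Amy2a5 at 0. Both the acinar and the hepatocyte sum were highest in the localized library, with 7.67 FPKM (Cela1 7.24) and 1.02 FPKM.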

How the data were processed

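RNA from 3 cultured mouse lines, grown with 10% serum, was sequenced by the submitters, 1 library each, from TruSeq RNA libraries, per the labels' protocols. The authors deposited 1 table of FPKM per gene. Cufflinks 2.2.1, FastQC 0.11.2, STAR 2.5.2a and the build GRCm38 are listed, with no role or order, per the submitters' processing notes; gene annotation, layout and strand are not given in the sources used here. The lowest deposited value was 0.1 in each column, so 0.1 was subtracted. Of 22784 entries, 27 with a date number in place of a symbol were left out.

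Differences are in log2(FPKM + 1), called at 1 or more (2-fold) among genes with a mean of at least 1 FPKM. Depth was estimated from steps of whole fragments in genes with 1 GENCODE M21 transcript over 800 bases, with 170 bases lost per transcript to fragment ends; 77.2% of 1756 low values (0.5 to 5 fragments) lay within 0.1 of a whole number, where evenly spread values would give 20%. Of a gene's transcript lengths the one nearest to whole fragments was used, so fragment numbers are estimates: for Hoxa13 a length of 1309 gave 4 and 269 fragments in the invasive and metastatic libraries, and the longest, 2395, gave 8 and 525. The depth step was tested on simulated data. Intervals are Poisson for levels and Clopper-Pearson for ratios, at 95%. Python 3.11.15, pandas 2.3.3 and scipy 1.17.1 were used. Every member with at least 1 FPKM in any library was named, and of other lists the genes past 2-fold and a fixed few. Some genes of these lists are not reported here by name. The members, lists and rules were chosen with earlier results of these data known. Alternatives covered the pseudocount, the filter, scaling, the 0.1, the threshold and a counting rule added after the values were seen.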

Additional observations from a re-analysis of the deposited data

How the results depend on the processing

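Scaling each library to the same median ratio changed no count or call and moved the cluster sums by less than their counting intervals. Adding 0.1 back (deposited values as they are) adds 0.1 per gene and so gave cluster sums, in the order localized, invasive, metastatic, of 13.5, 1.53 and 15.7 FPKM for Hoxa, 1.11, 2.04 and 3.93 for Hoxb, 1.03, 1.39 and 1.07 for Hoxc and 0.909, 0.9 and 0.9 for Hoxd; it took Hoxa7 (metastatic against invasive, 0.94) and Hoxb7 (metastatic against localized, 0.94) under 2-fold. A pseudocount of 0.1 moved the medians to -3.90 and -0.84 for the invasive and metastatic libraries, each against the localized one, and to 2.72 between the later 2, with 2 members lower in the second comparison and 5 higher in the third. Without the filter all 3 medians over 39 members were 0, and 3 members were higher in the metastatic than in the localized library (Hoxa10, Hoxa13 and Hoxb7). A threshold of 3-fold left 0 lower in metastatic against localized and 1 higher in metastatic against invasive. A filter at a mean of 5 FPKM left 0 members and gave no value. The added counting rule called 8 lower and 2 higher (invasive against localized), 8 higher (metastatic against localized) and 12 higher (metastatic against invasive). With the longest transcript these were 8 and 3, 8 and 12, with 2 lower in metastatic against localized. No paired analysis was possible because each group has 1 library. With 1 library per stage, nothing here measures the spread between cultures, and values under about 10 fragments rest on counting intervals that span several-fold.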

Other observations

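Other patterning factors of mesenchyme also differed between the lines. Of 24 such genes, 14 had a mean of at least 1 FPKM and were counted by the same 2-fold rule on the log2(FPKM + 1) scale. Of these, 6 were at least 2-fold lower in the invasive than in the localized library and 3 higher (beside 6.08% and 8.78% of all genes), and 6 were lower and 1 higher in the metastatic than in the localized library (beside 7.29% and 9.07%). Between the metastatic and invasive libraries, 4 were lower and 1 higher in the metastatic one (beside 1.67% and 1.33%). Osr1, a factor of intermediate and lateral mesoderm, had 59.8, 0.728 and 0.0376 FPKM in stage order. Tbx15 had 8.45, 2.88 and 1.82 FPKM, lower than the localized level in the other 2 libraries.

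Pitx1, a homeobox factor of the hindlimb, had 14.4 FPKM in the invasive library and 0.0385 and 0.0304 FPKM in the localized and metastatic libraries, so it was high where Hoxa was low. Nkx2-3, a homeobox factor of gut mesenchyme and spleen, had 0, 5.72 and 4.92 FPKM. Tbx5, Emx2, Barx1 and Six2 were listed at 0 in all 3. By listed value Pitx1, Nkx2-3 and Twist1 (61.9, 6.13 and 13.5 FPKM) each had a different order of the lines. The localized and metastatic values of Pitx1 rest on 4 and 3 fragments, too few to be told apart.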
